A study of Rattus norvegicus with 48 samples.

Results

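The lungs of rats that breathed filtered air were compared at day 7 and at day 1 after the last of 4 daily 6-hour sessions in an inhalation chamber, a comparison that asks how the control lung itself changed over the time course. The 16 libraries, 8 of day 7 and 8 of day 1, were those labelled air in the day 7 and the day 1 gene tables, out of 48 libraries in the series. The series tested diesel particles at 1.0 mg/m3 combined with fracking sand dust at 30 mg/m3, and its other 32 libraries are the exposed lungs of days 1, 7 and 27 and the air lungs of day 27. All animals were healthy male Sprague-Dawley rats of 200 to 250 g, housed in pairs on a light-dark cycle of fixed length, and each library came from a piece of the lung of 1 rat, here named by the number in its label: rat-265 to rat-272 at day 7 and rat-249 to rat-256 at day 1. The days were different animals, and each day's libraries were deposited in a table of their own. Day, animal set and any batch in dissection, library preparation or sequencing are the same split and cannot be told apart. The time of day at which the lungs were taken is not in the sources used here.

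The daily clock of mammalian cells is a feedback loop. CLOCK and BMAL1, the product of Arntl, switch on the Per, Cry, Nr1d1, Nr1d2 and Dbp genes; PER and CRY proteins then hold CLOCK and BMAL1 back, while the REV-ERB proteins of Nr1d1 and Nr1d2 repress Arntl and the ROR proteins activate it. Lung cells run this loop strongly, so the level of its transcripts in a lung depends on the hour at which the tissue was taken.

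Total counts per library ran between 10708682 and 14400337 at day 7 and between 11340288 and 12751512 at day 1. Values below are CPM, read counts scaled to the library totals and adjusted over all 48 libraries, and a gene was called when its adjusted p in edgeR's quasi-likelihood test (Benjamini-Hochberg, over all genes tested) was under 0.05; fold changes are log2, day 7 over day 1, with standard errors. Markers that define lung tissue were present: the summed level of 14 measured surfactant and alveolar type 2 genes was 32720 to 40700 CPM at day 7 and 29500 to 40340 CPM at day 1, and none of the 14 was called. Rat-251 and rat-252 of day 1 stood apart from the other libraries on the first principal component, which held 27.1% of the variance. The day 7 libraries of rat-265 and rat-268 differed by 1.56 times the counting noise, against 2.40 times for the next closest pair, so the comparison was repeated with the 2 libraries counted as 1 sample.

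Of 14268 genes tested, 1461 (10.2%) were called: 1024 (7.18%) were higher and 437 (3.06%) lower at day 7 than at day 1. The changes were small: the median size over the called genes was 0.27 log2 units, and 143 genes (1%) were called with a change of at least 1.5-fold, 120 of them higher and 23 lower. The day 7 and day 1 libraries did not overlap at all for 148 genes (1.04%), of which 101 (0.708%) were higher at day 7 and 47 (0.329%) lower. With rat-265 and rat-268 summed into 1 sample, 845 genes were called, 841 of them among the 1461. Without any 1 of rat-265, rat-268 and rat-251, 745, 882 and 840 genes were called, and without both rat-251 and rat-252, 661 were. With upper quartile scaling the split was 834 higher and 643 lower, which is 56.5% higher against 70.1%.

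Clock genes were among the largest changes. Among the repressors and output genes of the loop, 5 of 13 measured members fell and 1 rose, with a list median of -0.36. Among the activators 2 of 4 measured members rose, none fell, and the list median was 0.31. Over all genes tested 3.06% fell, 7.18% rose and the median was -0.0015. Nr1d1, Dbp, Per3, Nr1d2 and Cry2 were lower at day 7 than at day 1, and Arntl, Clock and Cry1 were higher. The proximal promoters of 5 of these called genes and of the immediate early gene Klf6 are printed here to show which of them carry, next to the start site, the letters bound by the loop's own factors. The window runs from 250 bases before to 50 bases after the start (RefSeq, GRCr8, a later assembly than the one used for counting). Capitals mark the E-box CACGTG, bound by CLOCK and BMAL1, the core AGGTCA shared by ROR and REV-ERB sites, and the serum response element (CArG box), bound by serum response factor; each was searched on both strands.
Nr1d1 (chr10:84229405-84229704, minus strand): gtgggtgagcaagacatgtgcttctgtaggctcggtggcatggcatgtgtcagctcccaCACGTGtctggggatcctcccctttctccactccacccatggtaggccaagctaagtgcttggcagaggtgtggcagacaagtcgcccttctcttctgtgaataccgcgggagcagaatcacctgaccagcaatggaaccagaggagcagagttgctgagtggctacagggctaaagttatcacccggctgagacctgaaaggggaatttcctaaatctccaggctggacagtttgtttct
Nr1d2 (chr15:9954784-9955083, plus strand): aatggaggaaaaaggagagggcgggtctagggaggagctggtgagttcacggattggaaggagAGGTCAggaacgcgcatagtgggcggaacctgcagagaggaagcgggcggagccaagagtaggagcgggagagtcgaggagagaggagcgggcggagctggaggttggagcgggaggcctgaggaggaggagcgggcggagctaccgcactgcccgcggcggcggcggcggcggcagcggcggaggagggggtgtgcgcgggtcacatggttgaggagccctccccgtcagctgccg
Arntl (chr1:176766078-176766377, plus strand, listed as Bmal1): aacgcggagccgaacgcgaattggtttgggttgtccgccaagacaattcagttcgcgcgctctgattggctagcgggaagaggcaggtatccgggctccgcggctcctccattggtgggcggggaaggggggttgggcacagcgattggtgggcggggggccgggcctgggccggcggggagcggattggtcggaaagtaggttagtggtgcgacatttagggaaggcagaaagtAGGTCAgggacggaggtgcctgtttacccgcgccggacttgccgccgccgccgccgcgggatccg
Dbp (chr1:105312006-105312305, plus strand): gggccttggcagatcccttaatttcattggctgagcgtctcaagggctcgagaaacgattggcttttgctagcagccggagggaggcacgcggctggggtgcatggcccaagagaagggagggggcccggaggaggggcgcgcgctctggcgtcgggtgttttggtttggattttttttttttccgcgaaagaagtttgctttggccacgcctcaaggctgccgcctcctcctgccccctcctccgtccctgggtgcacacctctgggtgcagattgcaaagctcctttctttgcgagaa
Per3 (chr5:166777751-166778050, minus strand): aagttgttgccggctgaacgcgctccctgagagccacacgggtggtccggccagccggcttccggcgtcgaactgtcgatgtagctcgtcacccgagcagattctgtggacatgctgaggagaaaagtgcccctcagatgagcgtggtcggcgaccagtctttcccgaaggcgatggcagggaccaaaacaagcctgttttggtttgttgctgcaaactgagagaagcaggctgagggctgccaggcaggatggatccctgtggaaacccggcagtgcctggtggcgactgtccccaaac
Klf6 (chr17:69458429-69458728, minus strand): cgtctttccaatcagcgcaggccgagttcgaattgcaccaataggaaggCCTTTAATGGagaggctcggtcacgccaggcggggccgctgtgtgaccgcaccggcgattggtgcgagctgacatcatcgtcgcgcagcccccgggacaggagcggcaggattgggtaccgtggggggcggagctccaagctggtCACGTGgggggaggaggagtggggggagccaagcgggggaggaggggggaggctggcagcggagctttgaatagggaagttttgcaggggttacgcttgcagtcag

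Of these 8 called clock genes, 7 were matched in the promoter table by symbol, with 9 entries; Cry1 was not. The E-box stood in the entry of Nr1d1 printed above, starting at -191 from the start site, and not in its other entry. AGGTCA stood at -187 in Nr1d2 and at -15 in Arntl. Over all 33469 promoters of the table, 6.42% held CACGTG and 16.2% held AGGTCA, so 1 and 2 of 7 genes is a description of these windows and no more. Dbp, Per3, Cry2 and Clock held neither motif in theirs.

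Nr1d1 encodes REV-ERB alpha, the repressor of Arntl. Its lowest, median and highest levels were 5.79, 10.5 and 53 CPM at day 7, against 26.9, 95.5 and 165 CPM at day 1. Rat-270 and rat-271, at 53 and 33.7 CPM, were the only day 7 animals that reached into the day 1 range. The change was -2.33 ± 0.53 (edgeR adjusted p = 0.0172). Nr1d2, encoding REV-ERB beta, had 36.6, 49.1 and 108 CPM at day 7 and 69.6, 126 and 188 CPM at day 1, a change of -1.06 ± 0.27 (adjusted p = 0.0237). The same 2 rats were the day 7 animals that overlapped day 1 for Nr1d2. Its call was lost without rat-265 (adjusted p = 0.0526), without rat-268 (0.0508) and with both summed (0.051).

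Dbp encodes a PAR-domain transcription factor that carries the clock's rhythm to its output genes. It had 4.72, 6.06 and 8.40 CPM at day 7, against 7.25, 22.3 and 60.1 CPM at day 1. The change was -2.06 ± 0.43 (edgeR adjusted p = 0.011). The day 7 animals were close together and the day 1 animals were not: the SD of log2 Dbp was 0.22 at day 7 and 1.07 at day 1. Tef, a related factor of the same family, was 91.3 to 107 CPM at day 7 and 83.2 to 176 CPM at day 1 and was not called (adjusted p = 0.0693).

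Per3, a Period gene of the negative limb, had 12.2, 15.9 and 20.8 CPM at day 7 and 21.7, 32 and 56.9 CPM at day 1. No day 7 library reached the lowest day 1 library, and the change was -1.11 ± 0.22 (edgeR adjusted p = 0.0085). Cry2, a cryptochrome that represses CLOCK and BMAL1, also did not overlap, with 35.2, 42.5 and 48.3 CPM at day 7 and 48.4, 52.7 and 58.5 CPM at day 1 (-0.31 ± 0.06, adjusted p = 0.0062). Cry2 kept its call in all 31 alternative analyses. Per1 and Per2, the other Period genes, were at a median of 35 and 13.3 CPM at day 7 and 58.5 and 17.3 CPM at day 1, with overlapping ranges, and neither was called (adjusted p = 0.583 and 0.186).

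Arntl moved against these. It had 49.9, 58.9 and 68.1 CPM at day 7, against 26.6, 37.3 and 56.1 CPM at day 1, a change of 0.59 ± 0.16 (edgeR adjusted p = 0.0272). Its call was lost without rat-265 (adjusted p = 0.0516), rat-267 (0.052) or rat-268 (0.0533). Clock, its partner, had 133, 147 and 152 CPM at day 7 and 111, 126 and 136 CPM at day 1 (0.22 ± 0.04, adjusted p = 0.0068). Npas2, which can take the place of CLOCK, had medians of 52.7 CPM at day 7 and 46.0 CPM at day 1 and was not called (adjusted p = 0.169). Cry1, unlike Cry2, was higher at day 7, with medians of 21.8 CPM at day 7 and 13.1 CPM at day 1 (0.55 ± 0.16, adjusted p = 0.0411); this call held in 12 of 31 alternatives and was lost without any 1 of 11 libraries (all but rat-249, rat-251, rat-270, rat-271 and rat-272) and with rat-265 and rat-268 summed (0.0741).

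The day 1 animals differed among themselves. Rat-249, rat-250, rat-251 and rat-252 had 7.25, 9.90, 9.60 and 15.6 CPM of Dbp and 56.1, 54.1, 49.8 and 43.3 CPM of Arntl. Rat-253, rat-254, rat-255 and rat-256 had 33.4, 28.9, 60.1 and 43.0 CPM of Dbp and 31.2, 30.7, 26.6 and 27.8 CPM of Arntl. The 4 animals with the most Dbp thus had the least Arntl, and they also had the most Per3, at 49.9, 38.0, 56.9 and 42.9 CPM. The day 7 animals, with Dbp of at most 8.40 CPM and Arntl of at least 49.9 CPM, were closer on both genes to rat-249, rat-250 and rat-251 than to rat-253, rat-254, rat-255 and rat-256.

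**Figure D1:**
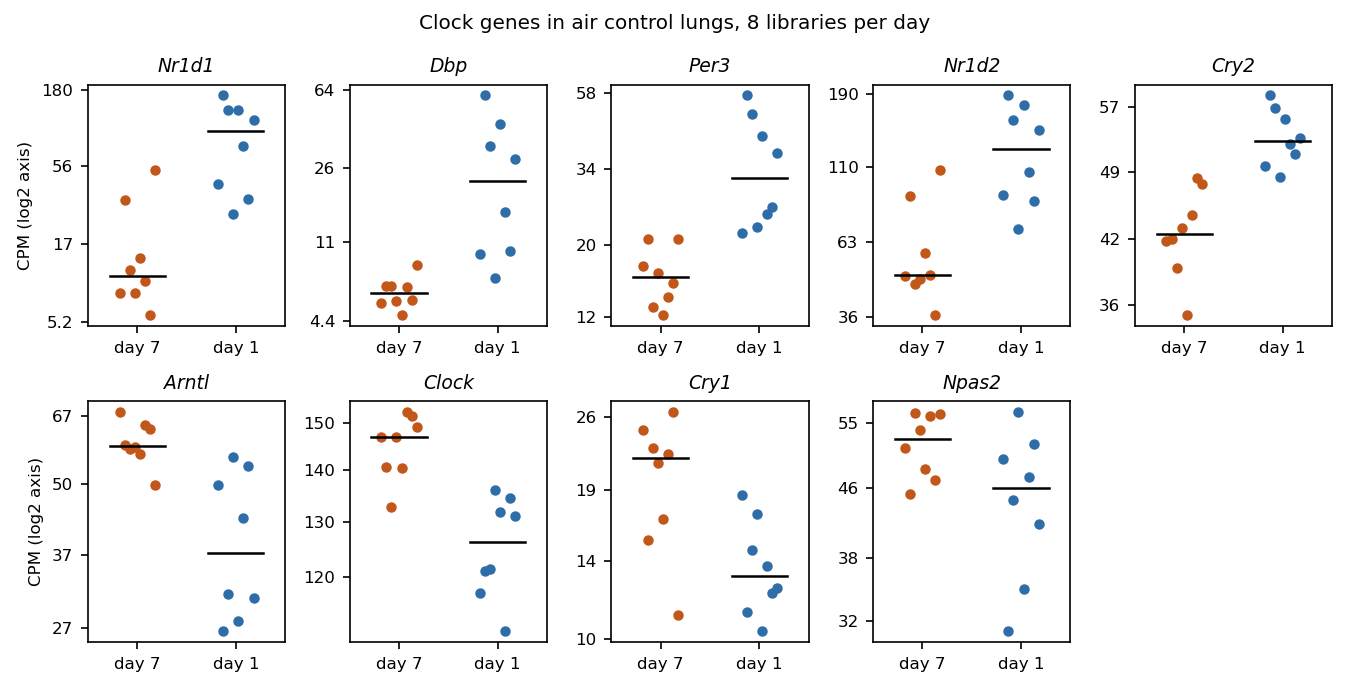
Levels of 9 clock genes in CPM (vertical log2 axis) for the 8 day 7 and the 8 day 1 air libraries; each point is 1 rat, the bar is the group median, and the sideways spread carries no meaning. Per3 and Cry2 do not overlap between the days, Dbp is tight at day 7 and spans 7.25 to 60.1 CPM at day 1, and Npas2 was not called.

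Lungs of air rats at day 27 were described for the same genes. Median Nr1d1 was 95.5, 10.5 and 41.0 CPM at days 1, 7 and 27, median Dbp was 22.3, 6.06 and 8.25 CPM, and median Arntl was 37.3, 58.9 and 55.2 CPM. Day 7 was thus the low point for Nr1d1 and the high point for Arntl among the 3 days, with no steady course over time. The day 27 values were not tested here.

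Rbm3, whose RNA-binding protein is known to be made in the cold and to follow the daily rhythm of body temperature, had the smallest adjusted p of any gene named here. It was chosen after its values were seen. It had 104, 116 and 131 CPM at day 7 and 141, 167 and 182 CPM at day 1, with no overlap. The change was -0.52 ± 0.06 (edgeR adjusted p = 0.000235), and it was called in all 31 alternative analyses. Cirbp, the related cold-inducible RNA-binding protein gene, had medians of 42.0 CPM at day 7 and 49.0 CPM at day 1, with overlap, and was not called (adjusted p = 0.121).

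Immediate early genes, which cells transcribe within minutes of a stimulus, were higher at day 7 in 5 of 19 measured members, against 7.18% of all genes tested, and lower in none, with a list median of 0.21. Without rat-251, rat-266 or rat-268, 3 members were called. Fos, which pairs with Jun proteins to form the AP-1 factor, had 8.59, 23.2 and 43.2 CPM at day 7 and 5.43, 8.59 and 13.8 CPM at day 1 (1.41 ± 0.34, edgeR adjusted p = 0.0191). Rat-270, rat-271 and rat-267, at 8.59, 8.97 and 12.9 CPM, lay inside the day 1 range. Egr1, a zinc finger factor induced alongside Fos, had 22.6, 43.1 and 85.1 CPM at day 7 and 13, 19.2 and 26.8 CPM at day 1 (1.36 ± 0.31, adjusted p = 0.0158), and again rat-270 and rat-271 were the 2 day 7 animals within the day 1 range.

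Klf6, a Kruppel-like factor, had medians of 55.0 CPM at day 7 and 44.6 CPM at day 1 (0.33 ± 0.07, edgeR adjusted p = 0.0116), and Nr4a2, an orphan nuclear receptor, 11.2 CPM at day 7 and 9.53 CPM at day 1 (0.29 ± 0.08, adjusted p = 0.0244). Nr4a2 lost its call without rat-251 (0.0525), rat-266 (0.0513) or rat-268 (0.0562). Fosb, at medians of 6.83 CPM at day 7 and 3.23 CPM at day 1 (1.18 ± 0.36, adjusted p = 0.0464), was called in 11 of 31 alternatives; rat-269 alone had 20 CPM at day 7, and without it the adjusted p was 0.0601. Jun, Junb, Atf3 and Nr4a1 were not called (log2 fold changes of 0.19, 0.24, 0.32 and 0.59; adjusted p = 0.417, 0.245, 0.329 and 0.0678). Without rat-251 and rat-252 of day 1, Klf6 was the only member called (adjusted p = 0.0485), while Fos and Egr1 had log2 fold changes of 1.36 and 1.31 (adjusted p = 0.0803 and 0.0645). Of the 5 called genes, 4 had an entry in the promoter table and Fos did not. Egr1 and Klf6 held a serum response element, in Klf6 at -201, against 1.64% of all promoters; Klf6 also held an E-box at -56.

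**Figure D2:**
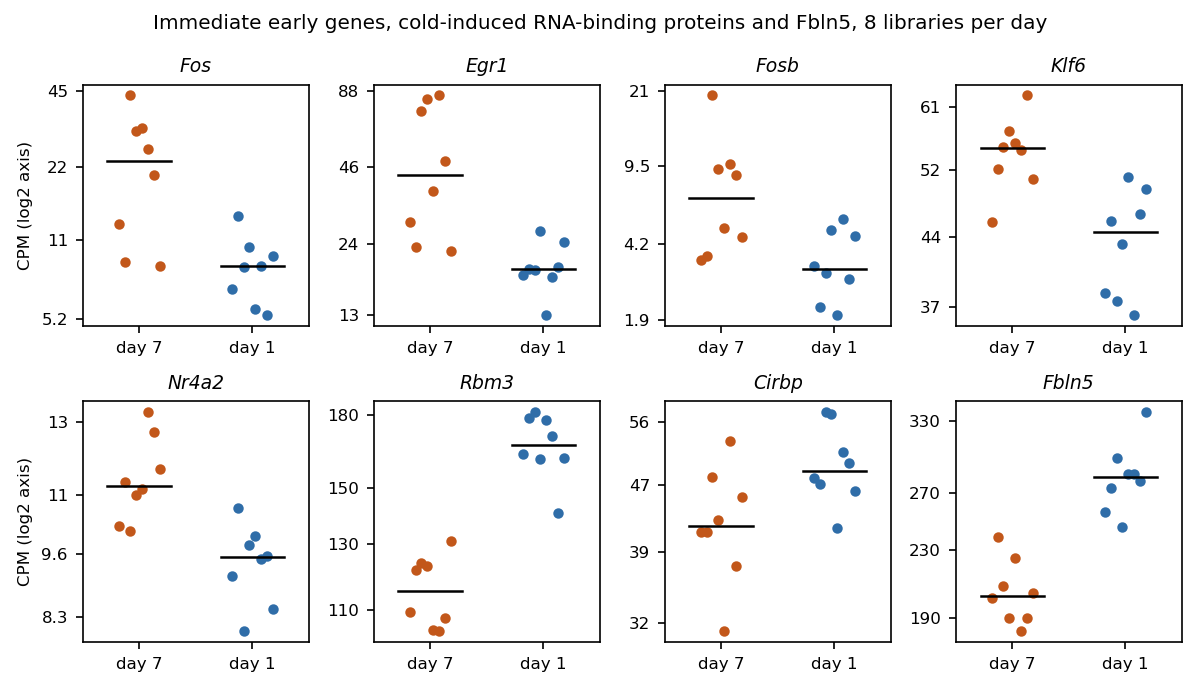
Levels in CPM (vertical log2 axis) of the 5 called immediate early genes, Rbm3, Cirbp and the elastic fibre gene Fbln5 in the 8 day 7 and the 8 day 1 air libraries; each point is 1 rat, the bar is the group median, and the sideways spread carries no meaning. Rbm3 and Fbln5 do not overlap between the days, while 3 of the 8 day 7 rats lie inside the day 1 range of Fos.

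A broad, small shift ran through the libraries beside these changes. Genes that encode very large proteins, a list drawn up after the values were seen, were higher at day 7 in 43 of 51 measured members. All 51 fold changes were above 0, and the median was 0.38. Over all genes tested 7.18% were higher, but the list was chosen with these values in view, so its share is a description and no test. With the 24 air libraries in one fit 20 of the 51 were called. Cytosolic ribosomal protein genes were lower in 25 of 66, against 3.06% of all genes tested, with 65 of 66 fold changes below 0 and a median of -0.14. Their count was 40 without rat-249, 39 with DESeq2, 10 without rat-251 and rat-252, and 5 with the 24 air libraries in one fit. Nuclear genes of the respiratory chain were lower in 9 of 71, with 70 below 0 and a median of -0.13. That count was 20, 14 and 16 without rat-249, rat-253 and rat-272, it was 3 to 5 without any 1 of rat-251, rat-252, rat-265, rat-268 and rat-270, and it was 1 with the 24 air libraries in one fit or 1 surrogate variable. Proteasome subunit genes were lower in 3 of 37, with 34 below 0; Psma7 was at -0.18 (edgeR adjusted p = 0.0217), and the other two, Psmd8 and Psmb10, were called in 15 and 9 of 31 alternatives. Scaling is relative, so these are changes against the other genes of the same library.

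Lrp1, an endocytic receptor, had 594, 654 and 704 CPM at day 7 and 450, 530 and 568 CPM at day 1, with no overlap (0.35 ± 0.05, edgeR adjusted p = 0.0012). Syne2, which ties the nucleus to the cytoskeleton, had 325, 368 and 377 CPM at day 7 and 222, 277.7 and 303 CPM at day 1, also with no overlap (0.40 ± 0.06, adjusted p = 0.0012). The lipid transfer protein gene Vps13d, the dynein heavy chain gene Dync1h1, the ubiquitin ligase gene Herc2 and the cadherin gene Fat1 likewise had no overlap, with log2 fold changes of 0.37, 0.27, 0.32 and 0.38. Rps25 and Rpl23a, components of the small and the large ribosomal subunit, had 140, 159 and 181 CPM and 318, 330 and 357 CPM at day 7, against 172, 189 and 219 CPM and 363, 389 and 431 CPM at day 1 (-0.27 ± 0.05 and -0.22 ± 0.04, adjusted p = 0.0057 and 0.0052). Cox8a, Cox7c and Uqcrb of the respiratory chain changed by -0.15, -0.17 and -0.18 (adjusted p = 0.0161, 0.0166 and 0.0181).

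The mean log2 level of the very large protein genes was 6.68 to 7.11 at day 7 and 6.19 to 6.73 at day 1, and that of the ribosomal protein genes was 7.93 to 8.10 at day 7 and 8.01 to 8.32 at day 1. Rat-251 and rat-252 of day 1, with the least of the first and the most of the second, were the 2 that stood apart in the principal components. Without them 35 of the very large protein genes were still called and their median was 0.295. When the ribosomal protein level of each library entered the fit as a covariate, 28 genes were called in all, none of the very large protein genes was, and their median was 0.13. Of those 28 genes, 14 were also called without the covariate, and 25 of the 28 were lower at day 7. Rbm3, Cry2 and Col7a1 were among the 28, as were Leng8, Fnbp4 and Srsf2, of nuclear RNA processing. The other called genes named here were not. Of 100 called genes chosen for naming, 3 kept their call with this covariate and 46 moved by over 1.5 times. Clock was then at 0.09, Slc7a2 at 0.22, Acaca at 0.19, Clic5 at 0.09 and Egfl7 at -0.14 (adjusted p = 0.488, 0.467, 0.353, 0.515 and 0.452). Dbp, Nr1d1 and Per3 then had fold changes of -2.43, -2.44 and -1.46, no smaller than before, with adjusted p of 0.167, 0.251 and 0.0712. This covariate was itself mostly lower at day 7 and was built from genes of which 25 of 66 were called lower. The fit cannot fully separate it from day, so a call lost with it does not tell the 2 apart. RNA integrity is not in the sources used here, and its part in this shift was not tested.

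**Figure D3:**
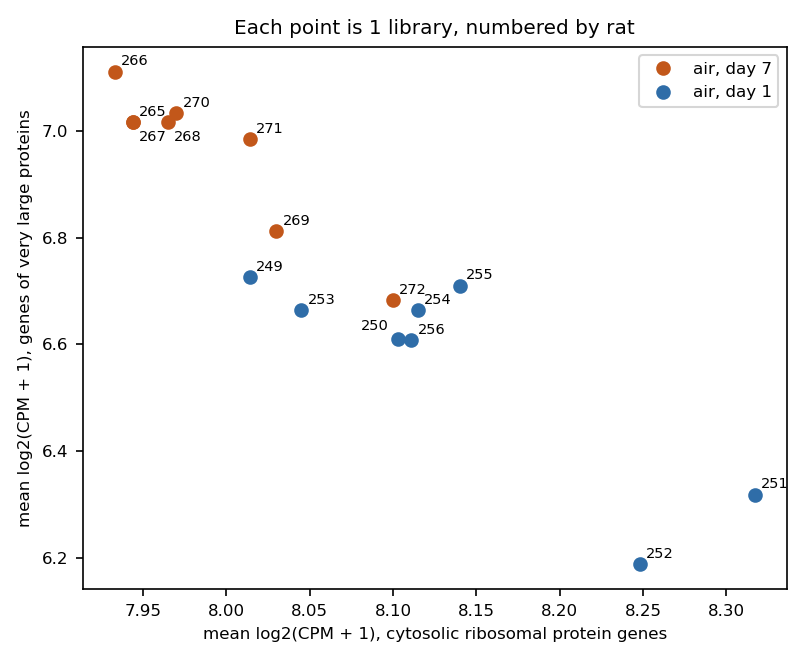
Mean log2(CPM + 1) of the cytosolic ribosomal protein genes (horizontal) against that of the very large protein genes (vertical) for the 16 air libraries, each numbered by rat. Rat-251 and rat-252 of day 1 sit at the lower right, and among the day 7 libraries rat-272 lies among those of day 1.

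Some genes of motile cilia are also in the very large protein list, which was drawn up after the values were seen. Whether the cilia calls belong to that shift was not tested. Of 17 measured cilia genes, 5 were higher at day 7, against 7.18% of all genes tested, 4 of them in the very large protein list: the axonemal dynein heavy chain genes Dnah5, Dnah11 and Dnah9 and the central apparatus gene Hydin. The other was Spag17, also of the central apparatus. The median of the whole list was 0.03, and Rsph1, a radial spoke gene, was at -0.15 (edgeR adjusted p = 0.417). Dnah5 had 6.41, 13.5 and 21.2 CPM at day 7 and 3.37, 5.51 and 7.60 CPM at day 1, with only rat-272 of day 7 inside the day 1 range (1.246 ± 0.21, adjusted p = 0.0038). With the ribosomal protein covariate its change was 0.62 (adjusted p = 0.275). Hydin lost its call without rat-251 (0.0587) or rat-265 (0.0516), and Spag17 without any 1 of 11 libraries (all but rat-250, rat-253, rat-254, rat-269 and rat-272).

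**Figure D4:**
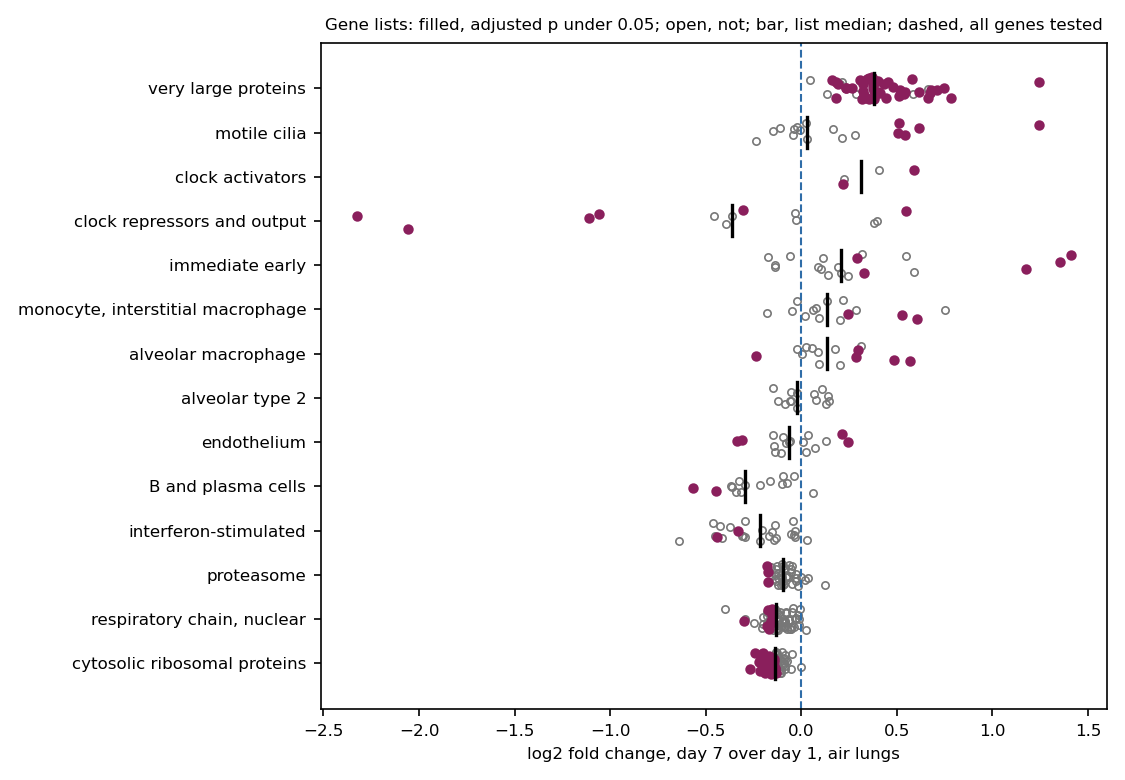
Log2 fold changes, day 7 over day 1 in air lungs (horizontal axis), of every measured gene in 14 lists; filled points were called, open ones were not, bars are list medians and the dashed line is the median over all genes tested. The very large protein genes lie right of the line and the ribosomal protein genes, but for 1, left of it, while the clock repressors include the points farthest to the left.

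Among blood and immune cells, fewer cells of a type and less RNA per cell cannot be told apart in whole tissue. B and plasma cell genes were lower at day 7 in 2 of 15 measured members, against 3.06% of all genes tested, and higher in none, with 14 of 15 fold changes below 0 and a median of -0.29. With the 24 air libraries or all 48 in one fit, 0 of them were called. Their median was -0.11 with the ribosomal protein covariate and -0.18 with 1 surrogate variable. Fcer2, the low-affinity IgE receptor, changed by -0.44 ± 0.12 (edgeR adjusted p = 0.0221). Tnfrsf13c, the BAFF receptor, changed by -0.57 ± 0.16 (adjusted p = 0.0312), a call lost without rat-250, rat-251, rat-267, rat-268 or rat-270 (adjusted p up to 0.0673). Cd79a and Ms4a1, which define B cells, were at medians of 19.8 and 10.8 CPM at day 7 and 23.9 and 12.5 CPM at day 1 and were not called (adjusted p = 0.13 and 0.158).

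Ighg, an immunoglobulin constant region gene, stood lower at day 7. It was listed at 0 in 7 of 8 day 7 libraries and at 2.61 CPM in rat-266, against 0 in rat-255 and 2.24 to 22.3 CPM in the other 7 rats at day 1 (-4.68 ± 1.1, edgeR adjusted p = 0.0158). The size of this fold rests on rat-266, since without it every day 7 library is at 0 and the fitted value is -9.59. Immunoglobulin genes share near-identical copies among which the counting can split reads, so this value is uncertain. The summed level of the B and plasma cell list overlapped widely, at 525 to 1497 CPM at day 7 and 582 to 1194 CPM at day 1.

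Monocyte and interstitial macrophage genes were higher at day 7 in 3 of 15, against 7.18% of all genes tested, with a list median of 0.14. The median was 0.32 with the ribosomal protein covariate, where none of these 3 genes was called, and 0.26 with 1 surrogate variable. Csf1r, the receptor for macrophage colony-stimulating factor, had 270.3, 291.3 and 324 CPM at day 7 and 229, 246 and 277.7 CPM at day 1 (0.24 ± 0.05, edgeR adjusted p = 0.0054). Cx3cr1, the fractalkine receptor, had 6.95, 10.9 and 13.1 CPM at day 7 and 5.86, 7.74 and 8.98 CPM at day 1 (0.53 ± 0.12, adjusted p = 0.0116). Vcan, a proteoglycan of monocytes and stroma, changed by 0.60 ± 0.16 (adjusted p = 0.0309), and lost its call without rat-267, rat-268 or rat-270 (adjusted p up to 0.0592). The list's summed level was 1098 to 1251 CPM at day 7 and 1038 to 1252 CPM at day 1, so the list as a whole overlapped.

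Of 14 measured alveolar macrophage genes, 4 were higher and 1 lower, against 7.18% and 3.06% of all genes tested. Without rat-251 or without rat-265, 2 were called higher, and with the 24 air libraries in one fit 1 was. Slc7a2, an arginine transporter, had 23.5, 27.2 and 29.6 CPM at day 7 and 10.7, 19.3 and 22.3 CPM at day 1, with no overlap (0.57 ± 0.11, edgeR adjusted p = 0.0062). Msr1, a scavenger receptor, had medians of 21.4 CPM at day 7 and 14.9 CPM at day 1 (0.49 ± 0.11, adjusted p = 0.0098). The lower gene was Car4, a carbonic anhydrase that also marks aerocytes, the capillary cells of gas exchange (-0.24 ± 0.05, adjusted p = 0.0072).

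Among other immune lists, in which single calls stand against 7.18% of all genes tested being higher, 1 of 17 T cell genes was higher at day 7, Cd4, the helper T cell co-receptor that rat macrophages carry as well, with 49.3, 60.1 and 63.7 CPM at day 7 and 38.8, 47.3 and 51.1 CPM at day 1 (0.31 ± 0.06, edgeR adjusted p = 0.0062). The T cell list did not follow Cd4: 12 of the 17 were below 0, and the median was -0.05. Ccr3, the eotaxin receptor, was the 1 called gene of 8 eosinophil and type 2 genes, with medians of 4.93 CPM at day 7 and 2.51 CPM at day 1 (0.89 ± 0.25, adjusted p = 0.0282), and it was not called without rat-251, rat-265 or rat-271 (up to 0.0631). Nkg7, a granule gene of cytotoxic cells, was the 1 of 13 natural killer and cytotoxic genes called (0.28, adjusted p = 0.0379), and lost its call without any 1 of 9 libraries (rat-249, rat-251, rat-252, rat-254, rat-256, rat-265, rat-266, rat-267 and rat-271). None of 14 neutrophil genes was called, with 10 of 14 below 0 and a median of -0.34. This median was 0.01 with the ribosomal protein covariate and -0.15 with 1 surrogate variable. S100a9, a calprotectin subunit, had medians of 68.5 CPM at day 7 and 112 CPM at day 1 (-0.72, adjusted p = 0.0678), and Mmp9, a gelatinase of neutrophil granules, 4.01 CPM at day 7 and 6.15 CPM at day 1 (-0.52, adjusted p = 0.0692). None of 9 red blood cell genes was called, Slc4a1 and Alas2 among them.

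Interferon-stimulated genes were lower in 2 of 25 (8%), against 3.06% of all genes tested, and higher in none, with 24 of 25 fold changes below 0 and a median of -0.22 in air lungs. That median was -0.05 with the ribosomal protein covariate and -0.10 with 1 surrogate variable. Rsad2, the antiviral enzyme viperin, had 27.2, 32.1 and 35.9 CPM at day 7 and 32.1, 40.8 and 54.3 CPM at day 1 (-0.33 ± 0.09, edgeR adjusted p = 0.0209). Oasl, an oligoadenylate synthetase-like gene, changed by -0.44 ± 0.12 (adjusted p = 0.0313), a call lost without any 1 of 7 libraries (rat-251, rat-252, rat-265, rat-266, rat-268, rat-270 and rat-271). In exposed lungs the median of the same list was 0.07, and no member was called there or for the difference between the air and the exposed change.

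Endothelial genes split in direction. Tek, the angiopoietin receptor, had 654, 692 and 746 CPM at day 7 and 531, 589 and 657 CPM at day 1 (0.24 ± 0.05, edgeR adjusted p = 0.0052), and Flt1, a VEGF receptor, 341, 360 and 375 CPM at day 7 and 278.2, 318 and 349 CPM at day 1 (0.21 ± 0.04, adjusted p = 0.0052). Emcn, a sialomucin of the vessel surface, had 170, 180 and 195 CPM at day 7 and 193, 232 and 271.3 CPM at day 1 (-0.34 ± 0.06, adjusted p = 0.003), and Egfl7, a secreted factor of endothelial cells, changed by -0.31 ± 0.07 (adjusted p = 0.0082). The 17 measured pan-endothelial genes thus held 2 higher and 2 lower calls, against 7.18% and 3.06% of all genes tested, and their median was -0.06. Ptprb, a phosphatase that restrains Tek, rose by 0.53 ± 0.12 (adjusted p = 0.0137), and was at 0.14 (adjusted p = 0.642) with the ribosomal protein covariate.

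Matrix genes moved in both directions. Fbln5, which organises elastic fibres, had 183, 202 and 239 CPM at day 7 and 246, 281.9 and 339 CPM at day 1, with no overlap (-0.45 ± 0.06, edgeR adjusted p = 0.0012). Col6a3, of the microfibrillar collagen VI, changed by 0.29 ± 0.07 (adjusted p = 0.0172) and was the other called gene among 22 of fibrillar collagen and elastic matrix, a share of 9.09% against 10.2% of all genes tested. Col12a1, Col4a6 and Lama3 were higher (0.40, 0.33 and 0.18; adjusted p = 0.0027, 0.0105 and 0.0158) and Col7a1, of anchoring fibrils, was lower (-0.35 ± 0.08, adjusted p = 0.0155). Mfap4, a microfibril-associated protein gene, had 101, 124 and 196 CPM at day 7 and 87.6, 277.9 and 399.7 CPM at day 1 (-1.03 ± 0.29, adjusted p = 0.0386), where rat-255 of day 1, at 120 CPM, lay among the day 7 values and rat-256, at 87.6 CPM, below them; the call held in 11 of 31 alternatives and was lost without any 1 of 12 libraries (all but rat-255, rat-256, rat-269 and rat-272).

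In the epithelium, no surfactant or type 2 cell gene was called. Clic5, a chloride channel protein of the flat type 1 cells, had 1741, 1949 and 2009 CPM at day 7 and 1344, 1632 and 1760 CPM at day 1 (0.27 ± 0.05, edgeR adjusted p = 0.0063) and was 1 of 2 called among 14 type 1 genes, a share of 14.3% against 10.2% of all genes tested. The other, Rtkn2 (0.29, adjusted p = 0.0378), lost its call without any 1 of 12 libraries (all but rat-252, rat-256, rat-269 and rat-272). Pigr, which carries IgA into secretions, changed by 0.26 ± 0.06 (adjusted p = 0.0092), while Slpi, an antiprotease of airway secretions, changed by -0.51 ± 0.14 (adjusted p = 0.0273), a call lost without rat-251, rat-265, rat-268, rat-270 or rat-271 (up to 0.0607). Outside the epithelial lists, Hhip, an antagonist of hedgehog signalling, changed by 0.60 ± 0.14 (adjusted p = 0.0172), and was at 0.15 (adjusted p = 0.648) with the ribosomal protein covariate. It was the 1 called gene of 13 measured in the smooth muscle list, a share of 7.69% against 10.2% of all genes tested. The median of that list was 0.02. Pdgfra, a growth factor receptor of lung fibroblasts, changed by 0.28 ± 0.06 (adjusted p = 0.0094).

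Among 14 genes of pericytes, the cells that wrap capillaries, and of lipofibroblasts, 3 were higher and 1 lower at day 7, against 7.18% and 3.06% of all genes tested. Cspg4, the NG2 proteoglycan of pericytes, had 54.0, 61.9 and 74.2 CPM at day 7 and 50.8, 51.7 and 58.9 CPM at day 1 (0.29 ± 0.06, edgeR adjusted p = 0.0075). Notch3, a receptor of mural cells, had 201, 215 and 254.1 CPM at day 7 and 160, 174 and 213 CPM at day 1 (0.29 ± 0.07, adjusted p = 0.0161), and was at 0.16 (adjusted p = 0.575) with the ribosomal protein covariate. Both genes overlapped between the days. Abcc9, a potassium channel subunit, was at 0.19 (adjusted p = 0.0301). The lower gene, Cox4i2, was at -0.30 (adjusted p = 0.0286) and was called in 21 of 31 alternatives. Its call was lost without rat-250, rat-251, rat-252, rat-265, rat-267, rat-270 or rat-271. Cox4i2 encodes a respiratory chain subunit and is also 1 of the 9 nuclear respiratory chain genes counted as lower above. With the ribosomal protein covariate it was at -0.17 (adjusted p = 0.6). The growth factor list held 18 measured genes, of which Pdgfra was higher and Igfbp4 and Igfbp7, of the insulin-like growth factor binding proteins, were lower (-0.24 ± 0.05 and -0.15 ± 0.04, adjusted p = 0.0112 and 0.018).

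Of 24 measured genes of cholesterol and fatty acid synthesis, 2 were higher, a share of 8.33% that is near the 7.18% of all genes tested, and none lower; 22 were above 0 and the median was 0.19. Acaca, which makes malonyl-CoA, had 63.1, 72.9 and 79.0 CPM at day 7 and 39.8, 55.3 and 64.8 CPM at day 1 (0.43 ± 0.08, edgeR adjusted p = 0.0047). Fasn, fatty acid synthase, changed by 0.32 ± 0.10 (adjusted p = 0.0478), and was called without rat-250, rat-251 or rat-270 but not without any other 1 library. Hsp90b1, the chaperone GRP94 of the endoplasmic reticulum, had 879 to 1104 CPM at day 7 and 800 to 844 CPM at day 1 with no overlap (0.20 ± 0.04, adjusted p = 0.0104). Tiparp, a target of the aryl hydrocarbon receptor, had 30.1 to 35.1 CPM at day 7 and 21.8 to 28.9 CPM at day 1, also with no overlap (0.31 ± 0.06, adjusted p = 0.0043). It was the 1 called gene of 6 measured in the list of that receptor, against 7.18% of all genes tested being higher. In that list 3 genes were above 0 and 3 below, with a median of 0.009. Phlda3, a p53 target, had 46.8 to 56.1 CPM at day 7 and 57.5 to 70.4 CPM at day 1, with no overlap in the other direction (-0.31 ± 0.05, adjusted p = 0.0038). Bax, of the same list, changed by -0.23 (adjusted p = 0.0196). Phlda3 and Bax were the 2 called genes of 12 measured p53 targets, against 3.06% of all genes tested being lower. The p53 list as a whole did not follow them: 7 genes were above 0 and 5 below, with a median of 0.04. Gsta1, a glutathione transferase, had medians of 149 CPM at day 7 and 122 CPM at day 1 (0.23 ± 0.06, adjusted p = 0.0141).

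No gene was called among 25 of the cell cycle, with a median of 0.04, or among 14 that respond to glucocorticoids, with a median of 0.07. Over all genes tested 10.2% were called, so lists of this size would hold few calls at that share. Tyms and Mcm3, of DNA synthesis, had adjusted p of 0.054 and 0.0757 in edgeR, and were called in 5 and 2 of 31 alternatives. Skeletal muscle genes were low in 15 of 16 libraries; rat-266 of day 7 had 210 CPM of Myh1 and 140 CPM of Acta1, and none was called.

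Among the largest rises outside the lists were genes of low level. C1ql3, a C1q-like secreted protein gene, had 1.05, 1.56 and 2.57 CPM at day 7 and 0.412, 0.624 and 1.02 CPM at day 1, with no overlap (1.18 ± 0.24, edgeR adjusted p = 0.0063). Nek10 and Disc1 changed by 1.13 and 0.96 (adjusted p = 0.0111 and 0.0181), and were at 0.41 and 0.51 with the ribosomal protein covariate (adjusted p = 0.686 and 0.625) and not called with 1 surrogate variable (adjusted p = 0.07 and 0.121). Arfgef3 changed by 1.16 ± 0.29 (adjusted p = 0.0185), a call lost without rat-265 (0.0508), and was at 0.52 (adjusted p = 0.667) with the ribosomal protein covariate. Ctnnd2, which encodes delta-catenin, fell by 1.54 on the log2 scale, at a median of 0.403 CPM at day 7 and 1.74 CPM at day 1 (adjusted p = 0.0104). Pdzk1ip1 changed by -0.70 (adjusted p = 0.0121).

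The exposed lungs of the same days, 16 rats that the air comparison does not use, gave the same comparison in other animals. Of 14321 genes tested there, 503 (3.51%) were called, 216 (1.51%) of them lower at day 7 and the rest (2%) higher; with rat-257 and rat-260 of day 1 and rat-275 and rat-278 of day 7, 2 close pairs, each summed, 20 were. Of the 1461 genes called in air lungs, 1340 (91.7%) had a fold change of the same sign in exposed lungs, against 69.5% of the 14175 genes tested in both. Genes called in both numbered 164, which is 11.2% of the air calls and 32.6% of the exposed calls, and all 164 had the same direction, 132 higher and 32 lower. The exposed libraries of each day come from the same deposited table as the air libraries of that day, so a shared biological change and a difference between the tables cannot be told apart.

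The clock genes had the same signs in exposed lungs. Nr1d1 was -2.33 in air and -2.15 in exposed lungs, and Dbp was -2.06 in air and -2.92 in exposed lungs. Per3 was -1.11 in air and -1.23 in exposed lungs, Nr1d2 -1.06 in air and -0.98 in exposed lungs. Arntl was 0.59 in air and 0.80 in exposed lungs, and Cry2 -0.31 in air and -0.34 in exposed lungs. In exposed lungs edgeR called Nr1d1, Dbp, Clock and Cry1 (adjusted p = 0.0402, 0.0283, 0.0243 and 0.0239) and not Per3, Nr1d2, Arntl or Cry2. Fos and Egr1 were at 1.41 and 1.36 in air lungs and 1.06 and 0.79 in exposed lungs, Rbm3 at -0.52 in air and -0.28 in exposed lungs, and the very large protein genes had a median of 0.38 in air and 0.23 in exposed lungs.

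The difference between the air and the exposed change was tested directly over the 32 libraries. No gene of 14687 (0%) was called by edgeR's quasi-likelihood test, the smallest adjusted p was 0.231 and 1210 genes had an unadjusted p under 0.05; DESeq2 called 14 and limma-voom 0. In simulated data of this design 61.2% of 1.5-fold differences were recovered, so differences of that size could go unseen. The simulation drew each gene on its own, without the library-wide shift seen here, so the share in the real libraries may differ. The 5 genes with the smallest p were Slc29a1, Lrp2, Appl2, Aco1 and Tmem100. Slc29a1, an adenosine transporter, was at -0.15 in air and 0.16 in exposed lungs, and Lrp2, the receptor megalin, at 0.34 in air and -0.08 in exposed lungs. Mfap4 pointed in opposite directions, -1.03 in air and 0.50 in exposed lungs (adjusted p of the difference 0.249).

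**Figure D5:**
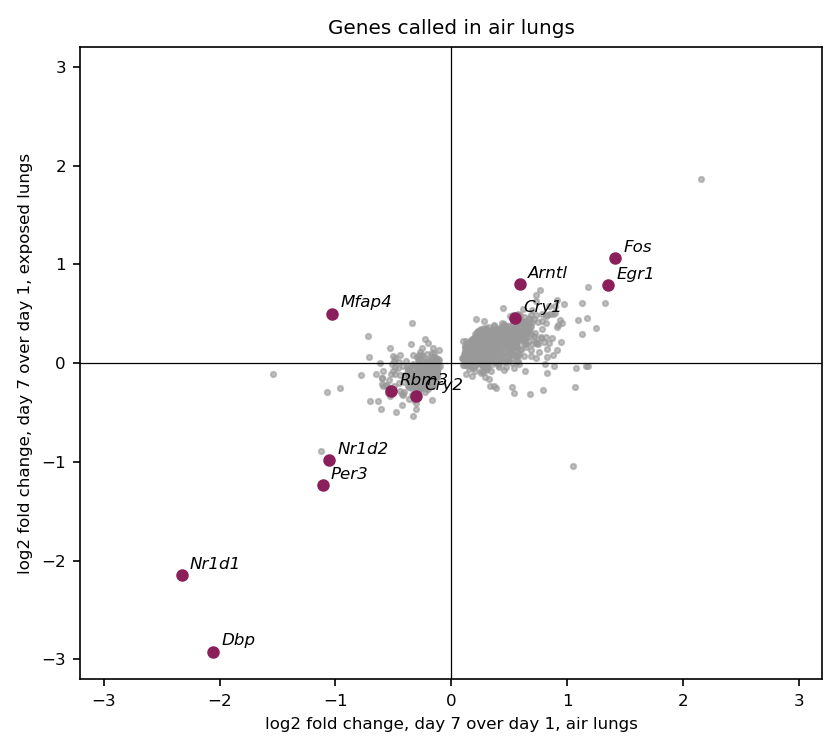
Log2 fold changes, day 7 over day 1, in air lungs (horizontal) and in exposed lungs (vertical) for the 1461 genes called in air lungs, with 2 points beyond the axes; named genes are coloured. Nr1d1, Dbp, Per3 and Nr1d2 lie at the lower left in both, Fos, Egr1 and Arntl at the upper right, and Mfap4 at the upper left.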

How the data were processed

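RNA from a piece of each rat's lung was made into libraries with a stranded mRNA kit, per the labels' protocols. Per the submitters' processing notes Salmon 1.10.1 and STAR 2.6.1d were used with genome build Rnor_6.0, and Trim Galore 0.6.7, cutadapt 3.4 and bcl2fastq 2.19 were named as well; roles and settings are not given in the sources used here. The authors deposited 1 table of expected counts per gene for each day, with 32285 identifiers in each. In the 16 air libraries 5.41% to 5.84% of all values, zeros included, were not whole.

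The day 7 and day 1 tables were joined by gene identifier, expected counts were rounded, and genes passing filterByExpr were tested with edgeR 4.0.16 (R 4.3.3; TMM scaling, robust quasi-likelihood fit, no covariates, Benjamini-Hochberg, threshold 0.05) on the 8 day 7 and 8 day 1 air libraries. The standard error is the fold change over the root of F. The difference from the exposed change was a contrast over 32 libraries. CPM were TMM-scaled over 48 libraries. Alternatives used RLE and upper quartile scaling, other filters, DESeq2 1.42.0, limma-voom 3.58.1, other library sets, 1 surrogate variable (sva 3.50.0), the total count as covariate, rat-265 and rat-268 as 1 sample, and each library left out; the ribosomal protein covariate and the fit without rat-251 and rat-252 were chosen after seeing the data.

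The comparison, the 51 gene lists and their members were chosen with earlier results of these data known, so lists are described by counts and medians with no test. Named genes are the 12 largest rises and 12 largest falls among called genes with a mean of at least 1 CPM and at least 7 of 8 day 7 libraries on one side of the day 1 mean, up to 3 called members per list by smallest p, members with the smallest p of some lists without a call, and the 5 smallest p of the difference; Rbm3, Cirbp, Egfl7, Abcc9, Cd79a, Ms4a1, Rsph1, Spag17, Hydin, Dync1h1, Herc2, Fat1, Leng8, Fnbp4, Srsf2 and single members of the clock and immediate early lists were chosen after their values were seen. Some genes that the rule names and some lists are not described, and 2 list members are not reported here. In simulated counts for the air comparison (14148 genes), 43.3%, 77.6% and 89.4% of 1.25-fold, 1.5-fold and 2-fold changes were recovered. Genes were drawn independently, with no library-wide shift, so these shares may not hold for the real libraries. Promoters were matched by symbol to RefSeq entries of GRCr8.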

Additional observations from a re-analysis of the deposited data

Results flagged for a closer look

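For 127 genes, the 8 values of day 7 and the 8 of day 1 were each looked at, and in 27 of these groups 1 rat lay apart from the others by a share of the group's range above Dixon's 95% critical value. For normally distributed values chance gives this in about 1 of 20 groups. The CPM used here were not put on a log scale and need not follow that distribution, so the rate is only a rough guide. For Ighg at day 7 every rat but rat-266 was at 0. The genes are also not independent, since several share a rat. All values are CPM, with the nearest other rat of the same group after it.

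Rat-266 at day 7 was the highest for the skeletal muscle genes Myh1 and Acta1: Myh1 was 210 (nearest 7.10) and Acta1 140 (nearest 5.98). The same rat had 2.61 of Ighg (nearest 0), 21.7 of Per2 (nearest 15.7) and 412 of Jun (nearest 271.03).

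Rat-272 at day 7 was the highest for Cdkn1a at 66.8 (nearest 44.5), Mmp9 at 7.22 (nearest 4.29) and Per1 at 133 (nearest 58.0). It was the lowest for the cilia genes Dnah11 at 32.9 (nearest 46.4) and Hydin at 35.9 (nearest 61.4).

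Rat-271 at day 7 was the highest for Ctnnd2 at 1.73 (nearest 0.809) and Rnf112 at 7.55 (nearest 4.01), and the lowest for the matrix genes Col6a3 at 708 (nearest 850) and Lama3 at 113 (nearest 128). Rat-269 had the most Fosb, 20 (nearest 9.77), and Msr1, 27.1 (nearest 22.5). Rat-267 had the least Pcsk4, 0.626 (nearest 1.02), Ccr3, 1.81 (nearest 4.11), and Pigr, 1030 (nearest 1140). Rat-270 had the least Cyp2b1, 582 (nearest 733).

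At day 1, rat-250 was apart in 4 genes: it was lowest for C3 at 140 (nearest 171), Pdia4 at 163 (nearest 175) and Nkg7 at 12.6 (nearest 17.1), and highest for Pcsk4 at 3.01 (nearest 2.09). Rat-256 had the most Zbtb16, 9.82 (nearest 6.47), rat-255 the most Oasl, 28.8 (nearest 21.0), and rat-253 the most Aco1, 78.1 (nearest 72.6).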

How the results depend on the processing

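The 100 called genes chosen for naming kept their direction under every alternative that gave a value, 31 for 94 of them and 30 for the other 6, to which DESeq2 gave no adjusted p. Of these 100, 97 lost their call with the ribosomal protein covariate, which was itself mostly lower at day 7. Calls were lost by 47 with 1 surrogate variable and by 38 with the 24 air libraries in one fit. They were lost by 38 without rat-251 and rat-252 and by 25 with rat-265 and rat-268 summed. Among genes not called, Per1 (0.41) and Aco1 (-0.0098) changed sign with the ribosomal protein covariate. The count of 1461 was 549 with the 24 air libraries in one fit, 605 with 1 surrogate variable, 845 and 783 with rat-265 and rat-268 summed and averaged, 28 with the ribosomal protein covariate and 661 without rat-251 and rat-252; leaving out single libraries gave 745 to 1936. The count of 143 with a change of at least 1.5-fold was 68, 43, 94, 83, 1 and 48 under the same settings, in that order, and 81 to 210 with single libraries left out: 91 without rat-251, 95 without rat-252, 81 without rat-265 and 94 without rat-268. The 503 calls in exposed lungs were 1043 with DESeq2, 318 with 48 libraries in one fit and 20 with close pairs summed. The 0 calls for the difference were 14 with DESeq2. The cause of these movements was not tested. Other scalings, filters and tools gave 1141 to 1910 calls. No paired analysis was possible because the 2 groups share no replicate numbers. Depth limits genes near 1 CPM, where 1 read in 10708682 to 14400337 is a large step.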
